A study of Mus musculus with 6 samples.

Results

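The genes of the cytosolic ribosome's proteins were followed in the kidneys of Far2 knockout and wild-type mice. They were taken by name, as all symbols made of Rpl, Rps or Rplp and a number, without the Rps6k kinases, Rps4y2 and names that end in -ps and a number. Of 101 names that match, 10 are Rps6k kinases, 1 is Rps4y2 and 6 are pseudogene names. This left 84 genes of 23396 in the deposited table, 52 of the large and 32 of the small subunit. They lie on 19 chromosomes. The name rule also takes Rps19bp1, a protein that binds Rps19 and is not itself a subunit, and it misses genes such as Rpsa, Fau and Gnb2l1 (Rack1), which encode ribosomal proteins under other names.

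The knockout group was 3 male mice homozygous for the Far2 allele of strain C57BL/6N-Far2tm2a(KOMP)Wtsi/2J, and the control group was 3 male C57BL/6N wild-type mice. All were 6 months old. RNA of the whole right kidney was sequenced after depletion of ribosomal RNA, so a level below is a mean over all cell types of the organ, and fewer cells of a type cannot be told apart from less RNA per cell. Far2 encodes fatty acyl-CoA reductase 2, which reduces fatty acyl-CoA to fatty alcohol. In the deposited table the 3 libraries of a group carry the numbers 0, 1 and 2.

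A cytosolic ribosome pairs a small subunit, which holds the messenger RNA and decodes it, with a large subunit, which joins the amino acids. Its proteins are needed in near-equal amounts, and cells keep them so through shared control of their short, abundant messenger RNAs and by degrading proteins left unassembled. Most of these messenger RNAs begin with a run of pyrimidines, the terminal oligopyrimidine (TOP) motif, through which mTOR signalling and LARP1 set their translation. A change in their translation need not show in RNA levels, which are what was measured here.

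The start of the transcript is shown for 7 of the 8 members whose levels did not overlap between the groups, since the pyrimidine run lies there. Each line gives 30 bases before and 30 bases from the start annotated by RefSeq (GRCm38.p6), 5′ to 3′, and capitals mark unbroken runs of at least 7 pyrimidines. The first 3 genes were lower and the last 4 higher in the libraries labelled knockout.
Rps16, chr7:28350659-28350718, plus strand: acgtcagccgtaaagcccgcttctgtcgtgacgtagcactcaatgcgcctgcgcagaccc
Rps28, chr17:33824533-33824592, minus strand: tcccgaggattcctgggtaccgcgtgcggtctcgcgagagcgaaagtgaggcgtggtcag
Rpl26, chr11:68901536-68901595, plus strand: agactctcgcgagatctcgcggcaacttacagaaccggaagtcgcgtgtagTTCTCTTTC
Rpl27, chr11:101442215-101442274, plus strand: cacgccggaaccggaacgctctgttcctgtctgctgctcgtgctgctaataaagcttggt
Rpl7a, chr2:26910777-26910836, plus strand: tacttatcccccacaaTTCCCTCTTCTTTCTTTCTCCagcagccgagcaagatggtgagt
Rps2, chr17:24720033-24720092, plus strand: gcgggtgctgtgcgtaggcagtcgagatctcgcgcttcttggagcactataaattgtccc
Rpl22l1, chr3:28805478-28805537, plus strand: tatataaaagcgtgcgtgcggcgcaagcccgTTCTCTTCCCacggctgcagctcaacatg
Rpl7a, Rpl22l1 and Rpl26 carry such a run in these 60 bases and Rps16, Rps28, Rpl27 and Rps2 do not. The start used in these kidneys was not measured, and a run in this window is not by itself a TOP motif. A window without a run therefore does not show that the messenger RNA lacks the motif. Of the 3 lower genes only Rpl26 carries a run. Its log2 fold change turned from -0.55 to 0.07 when its row was summed with an overlapping row, as described further on. Of the 84 members, 64 had an entry in the RefSeq table of 300-base promoters, each from 250 bases before to 50 after the start. Within 30 bases before the start and the 50 after it, a pyrimidine run was present in 52 of the 64 members (81.2%) and in 46.1% of all 27025 symbols in the table. The letters CCGGAAG, the core bound by ETS factors such as GABP, were present on either strand of the 300 bases in 25 of 64 members (39.1%) and in 9.93% of all symbols. The letters TATAAA, the usual form of that box of the core promoter which binds TBP, were present in 7 members (10.9%) and 15.7% of all symbols. The letters AAGATGGC, bound by YY1, were present in 6 members (9.38%) and 3.19% of all symbols. CCGGAAG can overlap with AAGATGGC and, read on the other strand, with a pyrimidine run, and a match describes the sequence only.

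The libraries held from 15261362 to 20631158 fragments assigned to genes, and 14354 genes passed the filter on low counts and were tested. The biological coefficient of variation was 10.1%. Far2 itself was at 1.99, 1.90 and 1.43 CPM (fragments in the usual counts-per-million unit, on library sizes scaled by TMM) in the libraries labelled wild type and at 1.59, 1.26 and 1.67 CPM in those labelled knockout. These values overlap, with a mean of 1.77 ± 0.30 CPM (SD, n = 3) against 1.51 ± 0.217 CPM, so the level of the targeted gene does not check the labels, and the groups below are named by label. Kidney markers were present in every library, and the summed level of 14 kidney identity genes ranged from 34325 to 41002 CPM among wild-type libraries and from 39141 to 41503 CPM among knockout libraries. Wild-type library 0 stood apart. The summed level of 15 tubular injury genes was 1638 CPM there, 822 to 826 CPM in wild-type libraries 1 and 2 and 806 to 938 CPM in knockout. For 16 macrophage and myeloid genes the sum was 300.1 CPM there, 155 and 167 CPM in wild-type libraries 1 and 2 and 130 to 170 CPM in knockout, and all 16 means were lower in knockout. None of the markers of these lists was at 0 in all libraries, and their part in the results below was not tested. Results are therefore also given without this library.

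Ribosomal protein transcripts made up nearly the same share of the fragments assigned to genes in both groups. The 52 large subunit members summed to 9834, 9505 and 9592 CPM in the wild-type libraries and to 9664, 10165 and 9773 CPM in those labelled knockout. On average this came to 9644 ± 170.5 CPM (SD, n = 3) in wild-type mice and 9867 ± 263.5 CPM in knockout, 2.32% higher. The groups overlap, and knockout library 1 holds the highest value. The 32 small subunit members summed to 5661, 5473 and 5475 CPM in wild-type mice and to 5555, 5734 and 5561 CPM in knockout. Their means were 5537 ± 108 CPM and 5617 ± 102 CPM, a difference of 1.45% that is smaller than the spread between libraries. Both subunits together took 1.53% ± 0.0611 of all fragments in wild type and 1.54% ± 0.0268 in knockout. Without wild-type library 0, the summed levels were 3.34% (large) and 2.61% (small) higher in knockout. Without knockout library 1, and with factors estimated anew, they were 0.709% and 0.323% higher.

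The balance between the subunits varied little. The large subunit sum was 1.74, 1.74 and 1.75 times the small subunit sum in the wild-type libraries and 1.74, 1.77 and 1.76 times in knockout. The means were 1.742 ± 0.00861 and 1.757 ± 0.0165 on the CPM scale, and the groups overlap. Both sums again leave out the rows of other names.

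Single members also differed little between the groups. Of the 84 members, 82 passed the filter, since Rpl10l and Rpl39l are listed at 0 in all 6 libraries. By edgeR's quasi-likelihood test, with p adjusted over all genes (Benjamini-Hochberg), none of the 82 was called (smallest adjusted p = 0.599), and neither was any of the 14354 genes (0.0%). An unadjusted p under 0.05 was reached by 3 members, all lower in knockout, namely Rpl26, Rps16 and Rps28, and by 8.31% of all genes tested, 3.17% higher and 5.14% lower. DESeq2 called 0 members and 11 of the 10127 genes it gave an adjusted p (0.109%). Its unadjusted p was under 0.05 for the same 3 members and for 4.39% of the 18725 genes it gave a p. That larger set was not filtered as edgeR's was, so the 2 shares are not alike. The mean was higher in knockout for 51 members and lower for 31. The median log2 fold change was 0.03 for the 50 large and 0.02 for the 32 small subunit members that were tested, against -0.0066 for all genes tested. Of the 82 members, 69 lay within 0.1 of 0 on the log2 scale. Without wild-type library 0, the medians were 0.04 (large) and 0.03 (small), and 6 members had an unadjusted p under 0.05 in edgeR's test, 1 higher (Rps27l) and 5 lower (Rpl26, Rps16, Rps27, Rps28 and Rps29), against 11.2% of all genes. Without wild-type library 1 the number was 5, against 6.16% of all genes.

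Abundant genes as a whole leaned the same way. Of the 75 members at 50 CPM or more, 64.0% were higher in knockout, with a median log2 fold change of 0.03. Of all 3647 genes at that level, 68.7% were higher, with a median of 0.05. Of the 75 members, 67 lay within 0.1 of 0, compared with 2239 of the 3647 genes.

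**Figure D1:**
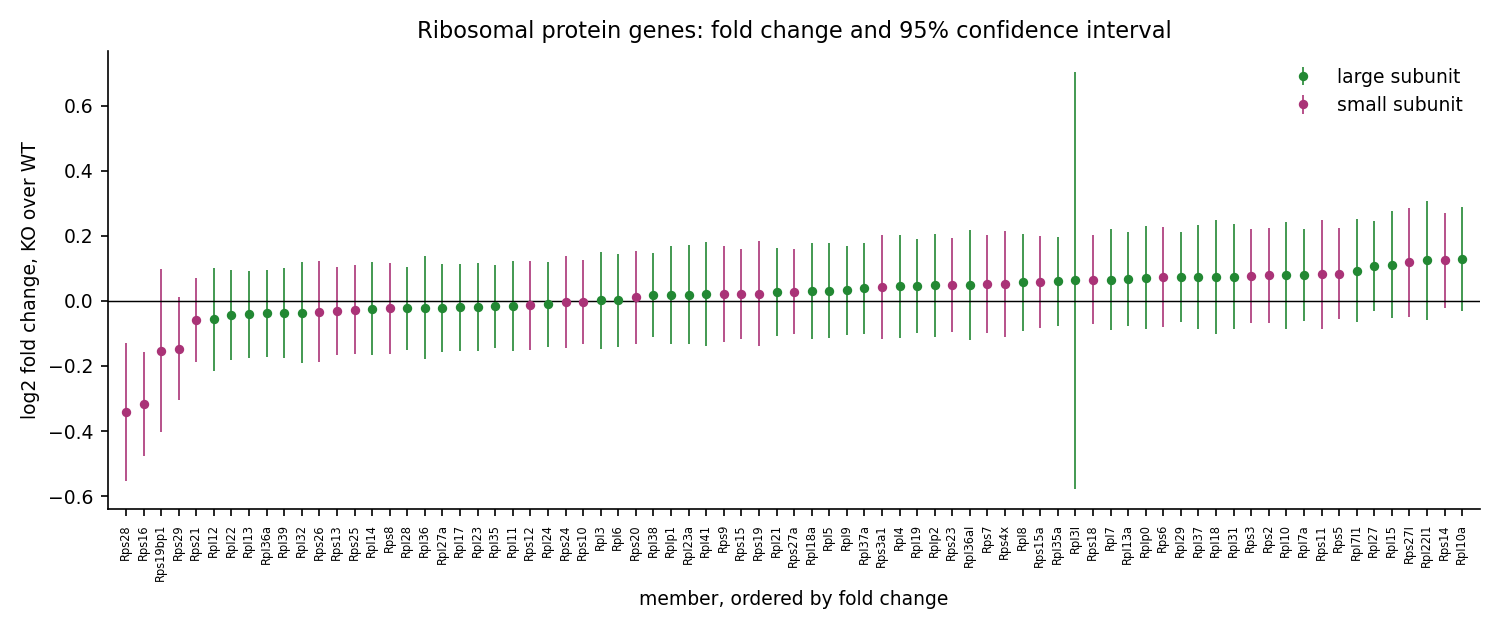
Log2 fold change, knockout over wild type, for 77 of the 78 tested members whose row shares no fragments with another row, in order, with 95% confidence intervals from edgeR's fit; green marks the large and purple the small subunit. Rps28 and Rps16 lie apart at the lower end with intervals below 0, most others lie within 0.1 of 0, and Rpl3l, with 18 to 32 fragments per library, has a wide interval.

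The libraries of a group also agreed closely for these genes. The median within-group coefficient of variation in CPM was 4.0% over the 82 members, 6.20% over all genes at 50 CPM or more and 9.38% over all genes tested. For 72 of the 82 members the 95% confidence interval of the log2 fold change stayed within 0.3 of 0, so larger changes of these genes lie outside the interval. The interval stayed within that bound for 5265 of all 14354 genes tested and for 2503 of the 3647 genes at 50 CPM or more. Rpl28 varied least, with a coefficient of variation of 1.37%. It was at 168.2, 169.5 and 173.9 CPM in wild-type mice and at 168.8, 166.3 and 168.3 CPM in knockout, and the groups overlap.

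Apart from the 4 rows that share fragments with another row, Rps28 and Rps16 had the lowest log2 fold changes. Rps16 encodes a protein whose tail reaches the transfer RNA in the P site. It was at 121.2, 133.2 and 122.8 CPM in the libraries labelled wild type and at 93.3, 105.1 and 104.6 CPM in those labelled knockout. All 3 knockout values lie below all 3 wild-type values. They average 125.7 ± 6.51 CPM (SD, n = 3) against 101.0 ± 6.66 CPM, 19.7% lower. The log2 fold change was -0.32 ± 0.072 (SE) with an adjusted p of 0.599 by edgeR's quasi-likelihood test (Benjamini-Hochberg). Over all alternatives it ranged from -0.35 to -0.19, with adjusted p from 0.200 to 0.998, and it was -0.34 without wild-type library 0. Rps16 lies at chr7:28350689-28352698 (mm10) in the deposited table, and the row of the small RNA AF357399 overlaps it.

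Rps28 encodes a small protein near the exit of the messenger RNA channel and is mutated in some families with Diamond-Blackfan anaemia. It was at 55.8, 71.7 and 60.2 CPM in wild-type mice and at 50.6, 47.9 and 49.8 CPM in knockout. The groups do not overlap, and wild-type library 1 is highest. On average it stood at 62.6 ± 8.22 CPM in wild-type mice and 49.4 ± 1.35 CPM in knockout (SD, n = 3), with a log2 fold change of -0.34 ± 0.095 (SE, adjusted p = 0.599 by edgeR's quasi-likelihood test). Without wild-type library 0 it was -0.42, and without wild-type library 1 -0.23. On the deposited FPKM scale, Rps28 was at 292.1, 307.1 and 279.7 in wild type and at 284.2, 285.9 and 254.1 in knockout, which overlap, and the log2 difference was -0.09. Rps29, which encodes a zinc-binding protein of the small subunit's head, was at 147.3, 170.3 and 156.6 CPM in wild-type mice and at 138.1, 141.9 and 148.4 CPM in knockout. These groups overlap by 1 library, and the log2 fold change was -0.15 ± 0.071 (SE, adjusted p = 0.603 by edgeR). On log2(FPKM + 1) its difference was 0.03, the opposite sign.

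Of the 82 members, 5 had all knockout values above all wild-type values in CPM (7.13% of all genes tested did) and 3 had all below (6.97%). The higher 5 were Rps14, Rpl27, Rpl22l1, Rpl7a and Rps2. Of these, Rpl22l1 held the fewest fragments, 232 to 324 per library. Rps14, a platform protein whose human counterpart is lost in a form of myelodysplastic syndrome, was at 176.3, 171.8 and 164.0 CPM in wild-type mice and at 178.6, 196.1 and 183.9 CPM in knockout. The gap between the groups is smaller than the spread within either, and the log2 fold change was 0.13 ± 0.065 (SE, adjusted p = 0.607 by edgeR). Rpl27, of the large subunit, was at 117.7, 108.9 and 114.3 CPM and at 123.0, 125.7 and 118.8 CPM, a log2 fold change of 0.11 ± 0.062 (SE, adjusted p = 0.627 by edgeR). Rps2, at the messenger RNA entry site, had 502.4 ± 13.1 CPM in wild-type mice and 530.4 ± 9.19 CPM in knockout, and Rpl7a, of the large subunit, had 355.0 ± 7.15 and 375.2 ± 8.20 CPM (n = 3). The members highest in fold change among rows that share no fragments were Rpl10a, the protein of the mobile stalk at the exit site of transfer RNA, and Rps14. Rpl10a was at 201.1, 188.9 and 187.2 CPM in wild-type mice and at 199.4, 226.8 and 205.1 CPM in knockout, where the groups overlap and knockout library 1 is high. Rpl15, a core protein of the large subunit, was at 215.5 ± 14.6 and 232.9 ± 11.5 CPM, a log2 fold change of 0.11 ± 0.073 (SE).

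**Figure D2:**
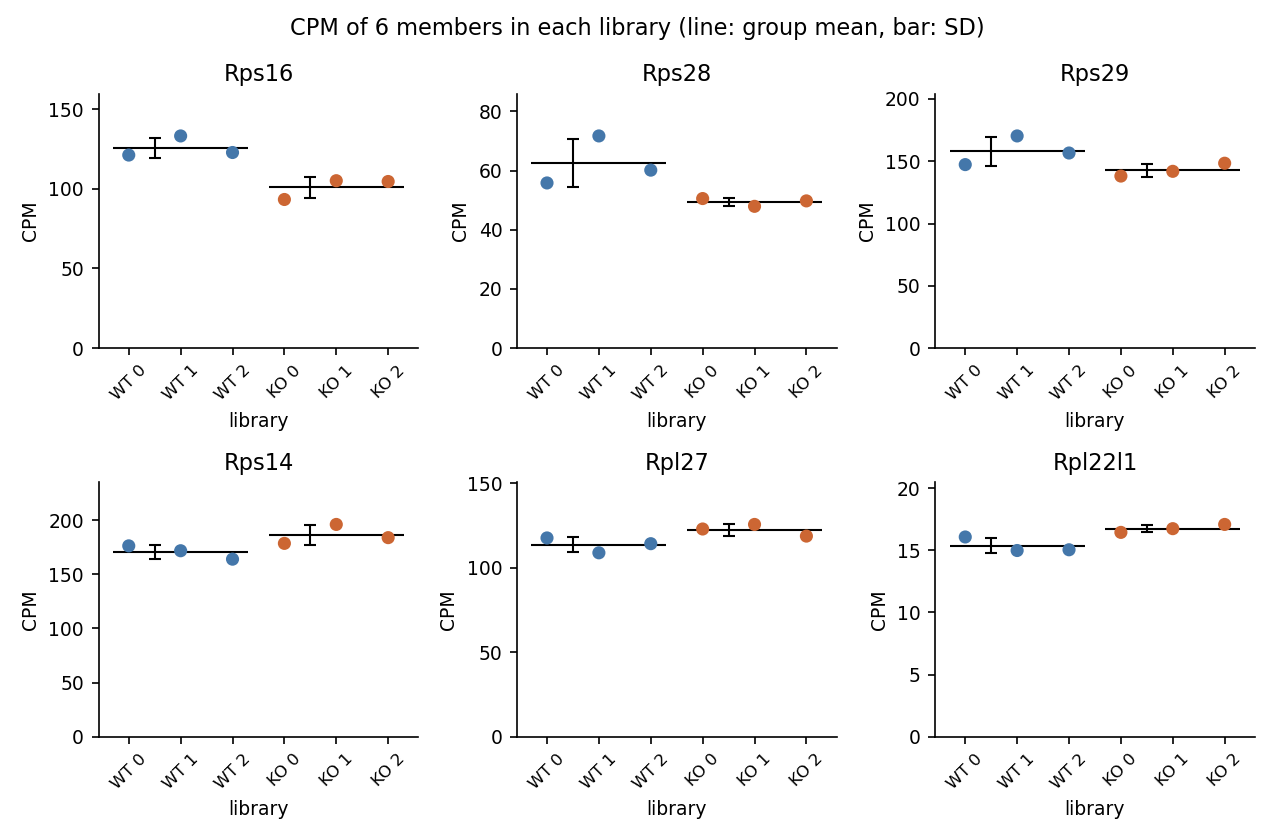
CPM of Rps16, Rps28, Rps29, Rps14, Rpl27 and Rpl22l1 in each library (blue, libraries labelled wild type; orange, knockout), with the group mean as a line and its SD as a bar; each axis starts at 0. Rps16 and Rps28 are lower in all 3 knockout libraries, Rps29 overlaps, and the 3 genes of the lower row are higher by less than 0.13 on the log2 scale.

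Levels were compared between genes per length, on the FPKM scale the authors deposited. The 77 tested members whose rows share no fragments, with Rpl3l left out, had a median of 300.2 FPKM. Rpl41 was the most abundant with 1048 ± 64.1 FPKM in wild type and 1173 ± 95.9 FPKM in knockout (SD, n = 3). It ranked 57 among all genes. Rpl41 encodes a peptide of 25 residues, the shortest here, in the bridge between the subunits, and its whole coding sequence (GENCODE M21, mm10) is short enough to be printed.
Rpl41: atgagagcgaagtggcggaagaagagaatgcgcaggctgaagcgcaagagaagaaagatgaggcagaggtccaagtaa
In single libraries Rpl41 was at 1110, 982 and 1053 FPKM in wild type and at 1089, 1278 and 1152 FPKM in knockout, and the groups overlap. Of the other members described here whose rows share no fragments, the highest were Rps29 (679.3 FPKM over all libraries) and Rpl10 (656.4). Rpl10 is a late-joining protein near the P site. Rplp1 (573.9) and Rps2 (568.0) came next. The library ranges of neighbours in this order overlap, except that all libraries of Rpl41 lie above those of the others. The coding sequences of the 84 members range from 25 to 419 codons, with a median of 151. At the low end, apart from rows that share fragments, stand Rpl3l at 1.40 FPKM, Rps19bp1 at 11.7 FPKM and Rps15a at 23.5 FPKM. Rps15a held 110.4 ± 5.01 CPM in wild-type mice and 114.9 ± 3.61 CPM in knockout. Its FPKM and CPM together imply a length of 4802 bases, against a coding sequence of 393 bases, so its FPKM is low for its fragments.

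The stalk that recruits elongation factors to the large subunit is built from Rplp0, Rplp1 and Rplp2. Rplp0 was at 524.6, 515.1 and 523.8 CPM in wild-type mice and at 537.6, 582.8 and 523.3 CPM in knockout. The means of 521.2 ± 5.29 and 547.9 ± 31.1 CPM differ by less than the spread in knockout. Rplp1 was at 182.3 ± 4.48 and 184.6 ± 11.5 CPM, and Rplp2 at 78.0 ± 2.01 and 80.7 ± 5.78 CPM (n = 3). All 3 overlap between the groups. Rpl5 and Rpl11, which with the 5S ribosomal RNA bind MDM2 when ribosome assembly is disturbed, had log2 fold changes of 0.03 ± 0.065 and -0.02 ± 0.061 (SE). Rps6, the small subunit protein that S6 kinase phosphorylates below mTOR, was at 304.2, 272.6 and 302.4 CPM in wild-type mice and at 308.3, 314.4 and 302.1 CPM in knockout, which overlap.

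Some members have a paralogue among the members, and some of these paralogues replace the parent in particular tissues. Rpl3l, which replaces Rpl3 in striated muscle, stood at 0.580% ± 0.194 of the FPKM of Rpl3 in wild type and 0.590% ± 0.114 in knockout (SD, n = 3). Rpl10l and Rpl39l, which are typical of testis, are listed at 0, while Rpl10 and Rpl39 were among the expressed genes with 656.4 FPKM and 82.8 ± 3.63 CPM in wild type (80.7 ± 0.755 CPM in knockout). Rpl39 and Rpl39l differ at 23 of 156 coding bases (85.26% identity). They are printed because the difference shows how reads of the 2 genes can be told apart, with capitals at the bases that differ from Rpl39.
Rpl39: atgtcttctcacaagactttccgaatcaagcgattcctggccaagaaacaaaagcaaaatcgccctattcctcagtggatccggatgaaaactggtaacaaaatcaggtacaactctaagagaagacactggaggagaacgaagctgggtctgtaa
Rpl39l: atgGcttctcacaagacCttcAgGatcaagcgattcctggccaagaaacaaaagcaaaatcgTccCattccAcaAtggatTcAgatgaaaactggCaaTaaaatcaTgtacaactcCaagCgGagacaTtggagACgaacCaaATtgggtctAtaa
Rpl7l1 was at 6.62% ± 0.234 of Rpl7 in wild type and 6.57% ± 0.209 in knockout. In 2 families the paralogue stood near its parent in FPKM. Rpl22l1 stood at 97.7%, 84.6% and 90.2% of the FPKM of Rpl22 in wild type and at 95.3%, 112.6% and 108.7% in knockout, which overlap. In CPM, Rpl22l1 was at 16.1, 15.0 and 15.1 in wild type and at 16.5, 16.8 and 17.1 in knockout, a log2 fold change of 0.12 ± 0.081 (SE, adjusted p = 0.663 by edgeR). Rpl22 had 107.9 ± 2.77 and 104.7 ± 4.82 CPM, so on that scale, which does not correct for length, Rpl22l1 lay far below it. Rpl36al stood at 110.6% ± 4.18 of the FPKM of Rpl36a in wild type and 120.1% ± 9.70 in knockout.

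Rps27l is the paralogue of Rps27, is induced by p53 and encodes a nearly identical zinc-finger protein. Its level was 66.8, 58.8 and 60.5 CPM in wild-type mice and 63.8, 67.7 and 70.7 CPM in knockout, which overlap, and the log2 fold change was 0.12 ± 0.075 (SE, adjusted p = 0.647 by edgeR). Their coding sequences have 255 bases each and differ at 61 (76.08% identity). They are printed with capitals where Rps27l differs.
Rps27: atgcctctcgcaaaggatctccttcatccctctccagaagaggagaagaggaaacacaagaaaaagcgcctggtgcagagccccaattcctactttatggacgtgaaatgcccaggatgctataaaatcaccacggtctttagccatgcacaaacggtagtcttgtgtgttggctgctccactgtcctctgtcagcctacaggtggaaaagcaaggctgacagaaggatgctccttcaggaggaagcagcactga
Rps27l: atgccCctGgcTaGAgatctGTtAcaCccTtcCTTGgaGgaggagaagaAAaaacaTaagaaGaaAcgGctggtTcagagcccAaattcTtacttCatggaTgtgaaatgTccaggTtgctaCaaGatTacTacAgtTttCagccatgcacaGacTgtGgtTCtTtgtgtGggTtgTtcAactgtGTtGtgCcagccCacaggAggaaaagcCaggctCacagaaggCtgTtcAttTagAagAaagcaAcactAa
In FPKM, Rps27l stood at 24.0% ± 0.962 of the summed rows of Rps27 and Gm9846 in wild type and 25.8% ± 1.67 in knockout.

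In 4 members the row named for the gene holds only a small part of the fragments of a pair of rows at the same locus. Rpl26, Rpl30, Rpl34 and Rps27 each overlap a row of another name (Gm15772, Gm12191, Rpl34-ps1 and Gm9846), and in these 4 pairs the deposited counts of both rows are not whole numbers. In GENCODE M21, Gm15772 is a processed pseudogene on chromosome 5, Rpl34-ps1 one on chromosome 6 and Gm12191 one on chromosome 11, away from the genes whose locus the deposited rows share. Gm15772 is 99.54% identical to the 438 coding bases of Rpl26, Gm12191 99.71% to the 348 of Rpl30 and Rpl34-ps1 99.44% to the 354 of Rpl34. The differing bases are few, so the stretches around all of them are printed, with the base in capitals and positions counted from 1 at the A of the start codon.
Rpl26, coding bases 157 to 197: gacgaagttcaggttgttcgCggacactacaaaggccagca
Gm15772, same bases, C177T: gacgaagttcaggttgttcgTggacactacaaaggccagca
Rpl26, coding bases 268 to 308: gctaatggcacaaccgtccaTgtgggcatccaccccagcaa
Gm15772, same bases, T288C: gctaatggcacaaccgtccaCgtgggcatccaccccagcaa
Rpl30, coding bases 76 to 116: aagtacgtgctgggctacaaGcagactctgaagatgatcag
Gm12191, same bases, G96A: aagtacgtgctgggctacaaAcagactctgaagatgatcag
Rpl34, coding bases 112 to 152: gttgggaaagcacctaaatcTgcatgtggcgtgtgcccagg
Rpl34-ps1, same bases, T132C: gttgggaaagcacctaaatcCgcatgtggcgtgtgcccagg
Rpl34, coding bases 298 to 338: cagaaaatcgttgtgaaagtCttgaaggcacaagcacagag
Rpl34-ps1, same bases, C318G: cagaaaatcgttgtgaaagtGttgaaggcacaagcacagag
A fragment that lies within the coding bases compared and covers none of these bases matches both sequences. Bases outside the coding sequence were not compared, and neither was Gm9846. How the deposited fragments were divided between rows at the same locus was not tested. The values of each single row are therefore uncertain.

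Rpl26, the member with the smallest p, was at 17.99, 18.02 and 13.98 CPM in wild-type mice and at 11.6, 10.6 and 11.9 CPM in knockout. Its log2 fold change was -0.55 ± 0.118 (SE, adjusted p = 0.599 by edgeR), the groups not overlapping. The row held from 4.11% to 7.73% of the pair's fragments, 5.95% to 7.73% in wild type and 4.11% to 4.89% in knockout. With Gm15772 added, the level was 247.8, 233.0 and 234.9 CPM in wild-type mice and 249.3, 258.9 and 243.3 CPM in knockout, and the log2 fold change became 0.07 ± 0.063 (adjusted p = 0.749 by edgeR). The sign thus turned when the 2 rows were summed.

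Rps27 showed the widest spread of all members. Its row was at 0.371, 0.946 and 11.8 CPM in wild-type mice and at 0.994, 0.552 and 0.877 CPM in knockout. Wild-type library 2 alone is high, with 181.7 fragments and 7.61% of the pair, against 0.229% to 0.653% in the other libraries. The log2 fold change of -2.37 became 0.28 without that library. The summed pair was at 162.1, 163.3 and 154.9 CPM in wild-type mice and at 152.2, 148.7 and 150.4 CPM in knockout, which do not overlap, with a log2 fold change of -0.09 ± 0.059 (adjusted p = 0.663 by edgeR). For Rpl30 the row alone gave 0.41 ± 0.245 and the pair 0.05 ± 0.061. For Rpl34 the row gave -0.10 ± 0.226 and the pair -0.02 ± 0.064. As pairs, these 4 genes had 553.9, 308.4, 320.2 and 785.1 FPKM (Rpl26, Rpl30, Rpl34, Rps27), within the range of the other members.

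**Figure D3:**
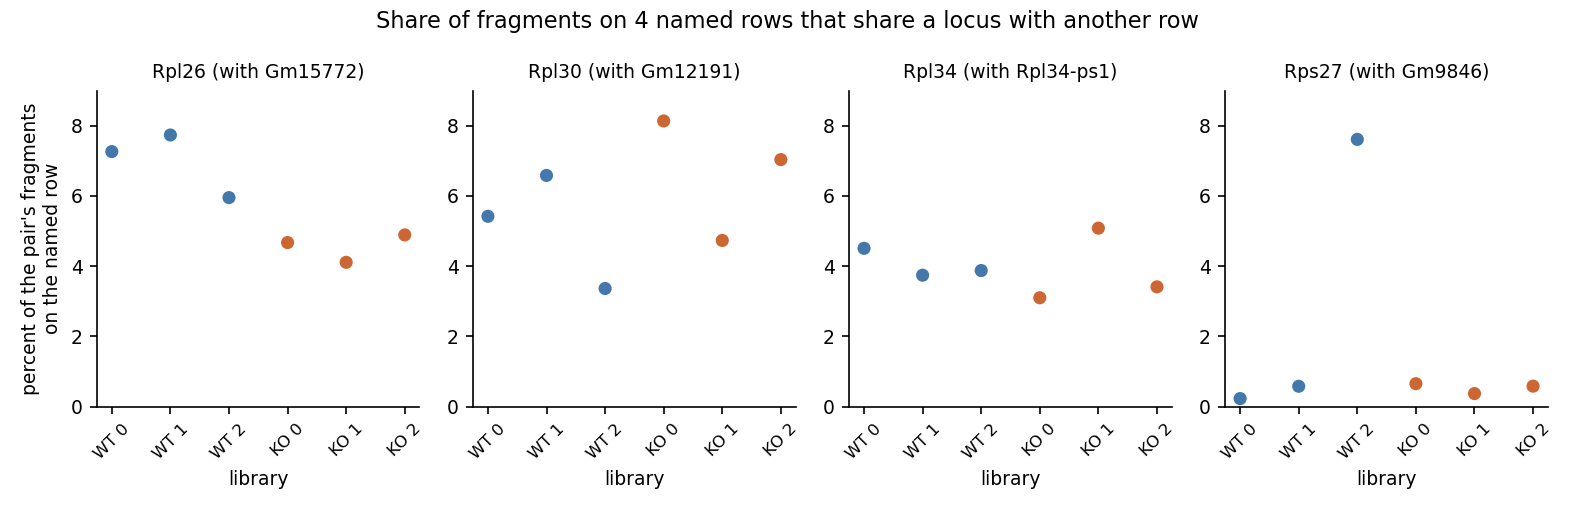
Percent of the fragments of a pair of rows at the same locus that stand on the row of the named gene, by library, for Rpl26, Rpl30, Rpl34 and Rps27 (blue, libraries labelled wild type; orange, knockout). The share is below 9% throughout, lower in knockout for Rpl26, mixed for Rpl30 and Rpl34, and near 0 for Rps27 except in wild-type library 2.

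How the family as a whole compared differed between the deposited FPKM and the CPM. In FPKM, the large subunit members summed to 14823, 13034 and 13283 in wild type and to 14525, 15656 and 14503 in knockout, 8.62% higher by the means, and the small subunit members were 7.69% higher. Without wild-type library 0 the differences were 13.2% (large) and 12.1% (small). In the authors' deposited table, 75 of the 82 members were higher in knockout and 7 lower, with a median log2 fold change of 0.0988. Of all 13404 genes compared in the authors' deposited table, 51.8% were higher, with a median of 0.0061. Short genes stood above that share. Genes at 8 CPM or more were put in classes of implied length (bases per gene, from CPM over FPKM). In each class under 1200 bases, from 80.1% to 89.7% were higher in FPKM. Most members fall in these classes and are counted in them. The members were not compared with other genes of like length alone. No member had a q-value under 0.05 in the authors' deposited table, where the smallest was 0.507 for Rps14 and 0.657% of all genes passed. There, 3 members had a p-value under 0.05, Rps14 (log2 0.27), Rps18 (0.23) and Rps27l (0.23), all higher in knockout, against 7.39% of all genes (2.65% higher). In limma's test on log2(FPKM + 1), 7 members had an unadjusted p under 0.05 (7.83% of all genes did), 5 higher (Rpl22l1, Rpl38, Rps14, Rps18 and Rps27l) and 2 lower (Rpl26 and Rps16), and none passed adjustment. In FPKM, 4 members were higher without overlap (6.78% of all genes tested) and 2 lower (6.52%). Rpl38, whose loss disturbs the translation of Hox messenger RNAs in the embryo, shows the gap between units best. It was at 100, 103.2 and 103.4 CPM in wild-type mice and at 100.9, 103.8 and 105.6 CPM in knockout, yet at 549.8, 433.6 and 496.2 FPKM and 576.7, 629.2 and 584.7 FPKM. The groups overlap in CPM and not in FPKM, and the log2 fold changes were 0.02 and 0.28.

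**Figure D4:**
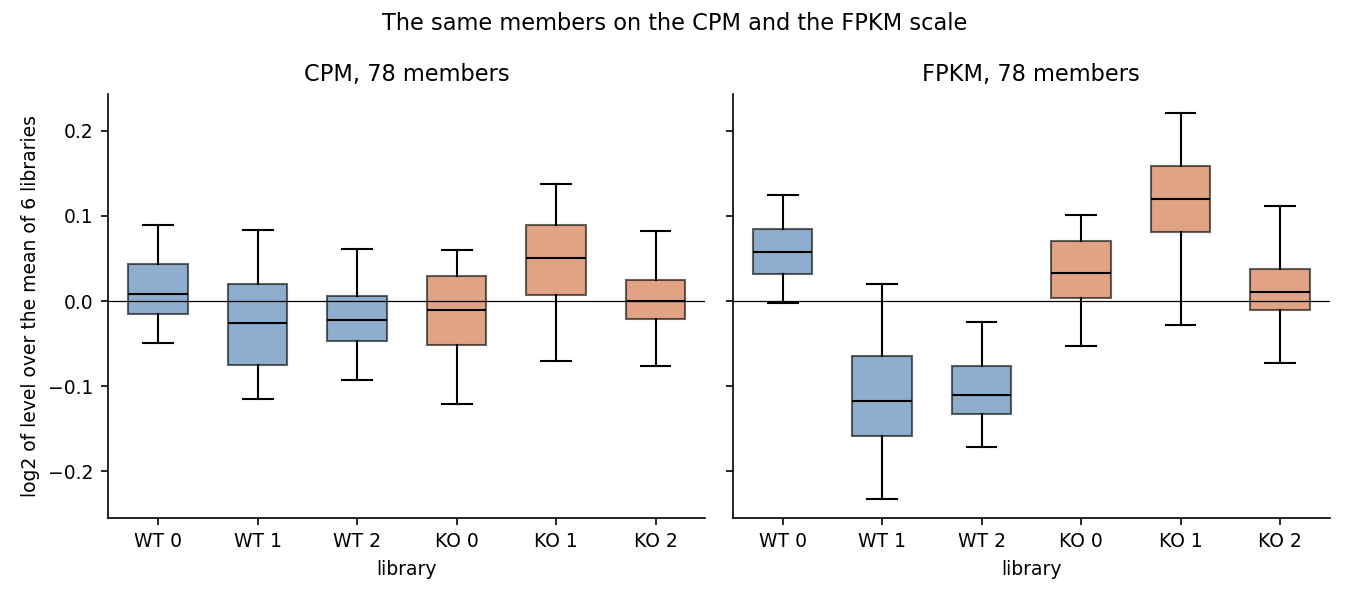
Log2 of each member's level over its mean across the 6 libraries, in CPM (left) and FPKM (right), for the same 78 members; boxes span the quartiles with the median as a line, and whiskers reach the 5th and 95th percentiles. Medians lie within 0.06 of 0 in CPM, whereas in FPKM wild-type libraries 1 and 2 lie at -0.12 and -0.11 and knockout library 1 at 0.12.

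The gap between the units also differed between libraries of 1 group. In FPKM, the median deviation of the 78 members was 0.06 in wild-type library 0, -0.12 and -0.11 in wild-type libraries 1 and 2, and 0.03, 0.12 and 0.01 in the knockout libraries. In CPM, the same medians were 0.01, -0.03, -0.02, -0.01, 0.05 and -0.0002. The FPKM given per CPM varied with a gene's implied length in a way that differed between libraries. Over all genes at 8 CPM or more whose implied length is under 300 bases, the median log2 of FPKM per CPM was -0.22 in wild-type library 1 and -0.12 in wild-type library 2, and it was 0.18 in knockout library 1. The groups differed by 0.20 (log2, knockout minus wild type) in that class, by 0.11 at 300 to 500 bases, by 0.07 at 500 to 800 bases and by -0.0049 above 5000 bases. The members had a median implied length of 642 bases, compared with 3060 bases over 9750 genes, and 9 of them fell under 300 bases. Rpl38, with an implied length of 190 bases, had the largest gap between units among rows that share no fragments (0.26 on the log2 scale), and Rps28, with 196 bases, had 0.25. What set the gap between the units in each library was not tested.

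**Figure D5:**
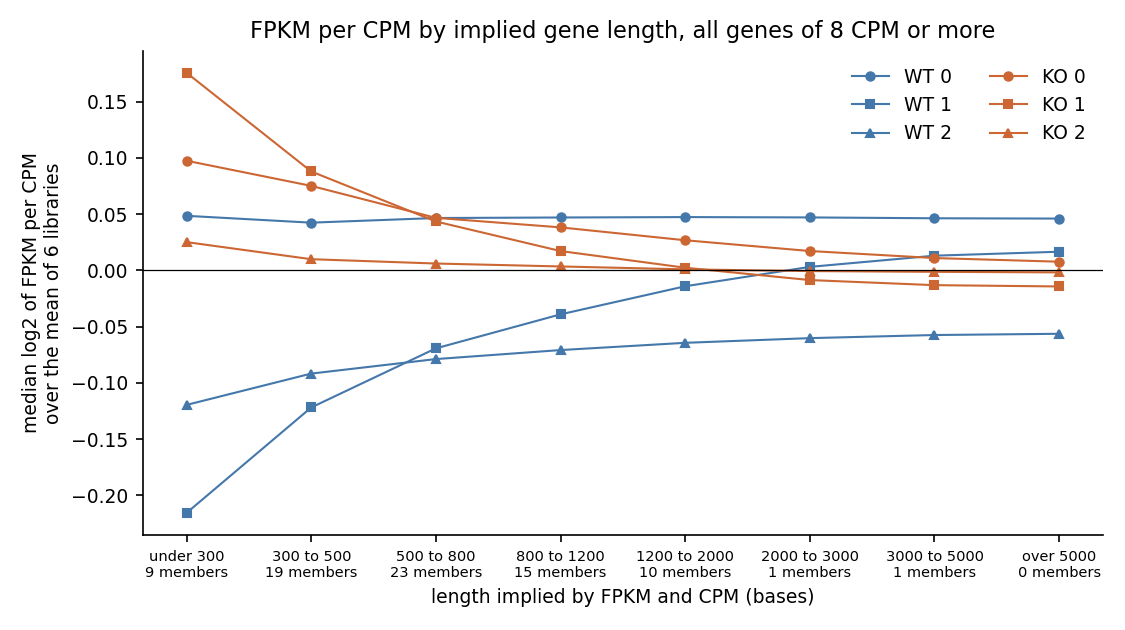
Median log2 of FPKM per CPM in each library, relative to its mean over the 6 libraries, for all genes at 8 CPM or more in classes of implied length (number of members under each class); blue, libraries labelled wild type, orange, knockout. The libraries spread most among the shortest genes, where wild-type library 1 is lowest at -0.22 and knockout library 1 highest at 0.18, and most members fall in the classes under 1200 bases.

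Ribosomal protein genes that the name rule misses also differed little. Rpsa, a small subunit protein first known as a laminin receptor precursor, was at 393.5, 365.1 and 382.1 CPM in wild-type mice and at 384.9, 454.5 and 407.6 CPM in knockout, which overlap. Its log2 fold change was 0.13 ± 0.079 (SE, adjusted p = 0.644 by edgeR). Fau, which encodes a small subunit protein fused to a ubiquitin-like sequence, and Gnb2l1, a scaffold on the small subunit, had log2 fold changes of 0.04 and 0.05. Of 11 elongation factors and other messenger RNAs of the TOP class, 0 passed the test. An unadjusted p under 0.05 by edgeR was reached by 0 of them and by 8.31% of all genes tested. Their median log2 fold change was 0.04, near that of the large subunit. Pabpc1, the cytoplasmic poly(A)-binding protein, had the smallest p of them, with 72.6 ± 2.82 and 64.9 ± 7.65 CPM.

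No gene of the wider pathway was called by edgeR either. Of 29 initiation factors, 22 had a higher mean in knockout, and the 2 with an unadjusted p under 0.05 were lower. Over all genes tested, 48.3% had a higher mean and 8.31% had such a p by edgeR (5.14% lower). Of all genes at 50 CPM or more, 68.7% had a higher mean. The counts of the lists below stand against the same shares. Eif5b, which joins the subunits, was at 64.0 ± 4.28 and 56.1 ± 4.33 CPM, and Eif1, which guards start codon choice, at 84.3 ± 10.3 and 73.1 ± 3.92 CPM. Of 48 ribosome assembly factors, 21 had a higher and 27 a lower mean, with a median log2 fold change of -0.01. Wdr12, a factor of large subunit assembly, was at 14.0, 14.7 and 12.4 CPM in wild-type mice and at 15.8, 16.2 and 17.3 CPM in knockout, without overlap (log2 0.26 ± 0.095 SE, adjusted p = 0.599 by edgeR). Of 14 RNA polymerase I subunits and factors, which transcribe ribosomal RNA, 0 had an unadjusted p under 0.05. Of 19 genes that control TOP messenger RNAs through mTOR, 6 had a higher and 13 a lower mean, and Eif4ebp2, a translation repressor that mTOR phosphorylates, was lowest in p with 30.3 ± 2.58 CPM in wild-type mice and 24.8 ± 1.86 CPM in knockout (adjusted p = 0.599 by edgeR). Among 7 transcription factors that bind ribosomal protein genes, Myc was at 5.01, 5.08 and 4.02 CPM in wild-type mice and at 3.93, 2.99 and 3.67 CPM in knockout, without overlap (log2 -0.42 ± 0.173 SE, adjusted p = 0.599 by edgeR). Of these 7 factors, 3 had a higher mean in knockout and 4 a lower one.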

How the data were processed

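Stranded libraries were made from total RNA of 6 frozen right kidneys after rRNA depletion, per the labels' protocols. Cuffdiff, Cufflinks 2.2.1, TopHat2 2.0.13, Bowtie2 2.2.3, cutadapt 1.2.1, SAMtools 1.2 and the mm10 build are named in the submitters' processing notes. For gene models, strand setting and multiple alignments, the answer is not given in the sources used here. As deposited, the files hold an estimated count per gene and library, FPKM per library, and a table with mean FPKM, a log2 fold change, a p-value and a q-value per gene, per the file headers. Estimated counts were not whole in 312 genes (1.09% of values, tolerance 1e-09) and were rounded. Library numbers could not be tied to named samples, and each library is taken as 1 mouse; p-values measure the spread between these libraries.

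After filterByExpr and TMM scaling, a two-sided quasi-likelihood F test without covariates was run in edgeR 4.0.16 (R 4.3.3), with Benjamini-Hochberg adjustment over 14354 genes and a threshold of 0.05; the fit was tested on simulated data. SE is the log2 fold change over the root of F. Alternatives used DESeq2 1.42.0, limma 3.58.1 (voom, and log2(FPKM + 1) and log2(FPKM + 0.1), trended), other scalings, filters and a robust dispersion, and each library was left out in turn. The implied length is 1000 times CPM over FPKM. Split rows were summed as an alternative chosen after seeing the data. At these depths counting error is small for most members, which held over 1000 fragments per library. It is larger for members with fewer, such as Rpl22l1 with 232 to 324.

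The members and all gene lists were chosen with earlier results of these data known. Named members are the 5 of each subunit with the smallest p, the 3 highest and 3 lowest in FPKM, the stalk, the paralogues with their parents, Rpl5, Rpl11 and Rps6; from the other lists, the 1 or 2 genes with the smallest p. Rpl7a, Rpl22l1, Rpl28, Rpl38 and Rps18 as named for overlap or unit were chosen after their values were seen. Promoters came from RefSeq (GRCm38.p6), coding sequences from GENCODE M21. Values of some single genes are left out.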

Additional observations from a re-analysis of the deposited data

How the results depend on the processing

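No paired analysis was possible because the library numbers 0, 1 and 2 in the deposited table match no sample label, and nothing ties a wild-type to a knockout library of the same number. No member was called under any alternative run (smallest adjusted p of a member in the count fits 0.171, DESeq2 for Rpl26). Over all genes, the number called was 0 in the test as reported, 1 with no filter, 1 with robust dispersion, 1 at a threshold of 0.10, 11 by DESeq2, and 0 to 1 with each library left out. On log2(FPKM + 1) the median log2 fold change rose to 0.104 (large) and 0.097 (small), and on log2(FPKM + 0.1) to 0.105 and 0.097. Summed in FPKM, the levels were 8.62% (large) and 7.69% (small) higher in knockout. The other settings kept both medians and both sums above 0 and moved each by less than the spread between libraries.

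Of 32 tested genes reported by the rule, 12 changed the sign of their log2 fold change under some setting, none of them called. Summing rows turned Rpl26 to 0.070. On log2(FPKM + 1) and log2(FPKM + 0.1) the sign turned for Rpl34 (0.0067 and 0.0055), Rps29 (0.0294 and 0.0295), Rpl36a (0.090 and 0.0904), Rpl39 (0.19 and 0.19) and Rpl11 (0.0529 and 0.0531). Rpl3 was -0.0141 with upper-quartile scaling and -0.0024 with a filter of 1 CPM in 3 libraries. With each library left out in turn, the log2 fold change lay on both sides of 0 for Rpl41 (-0.0168 to 0.0748), Rplp1 (-0.0249 to 0.0653), Rpl3l (-0.11 to 0.29), Rpl34 (-0.352 to 0.0398), Rps27 (-2.93 to 0.28), Rplp2 (-0.0031 to 0.10), Rpl3 (-0.0247 to 0.0430), Rpl39 (-0.0556 to 0.0011) and Rpl11 (-0.0504 to 0.0045). The cause was not tested. Rpl3l held 18 to 32 fragments per library, so counting error is large for it.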

Other observations

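Apart from Rpl34-ps1, the rows that the name rule left out for a pseudogene name, and Rps4y2, were low. Rpl34-ps1, whose row overlaps that of Rpl34, held 275.5 to 342.6 FPKM. Rps4y2, named for the Y-linked form of a small subunit protein, was at 9.73, 9.87 and 8.82 CPM in wild-type mice and at 8.48, 7.44 and 7.06 CPM in knockout, without overlap, with a log2 fold change of -0.31 ± 0.117 (SE, adjusted p = 0.599 by edgeR's quasi-likelihood test). Rpl31-ps12, the highest of the pseudogene rows that are no part of a split pair, was at 3.33 ± 1.85 CPM in wild-type mice and 2.32 ± 0.407 CPM in knockout (SD, n = 3), and it overlapped between the groups. Of the members, 21 overlap a total of 31 small nucleolar RNA loci in the deposited table, since many introns of ribosomal protein genes house such RNAs.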
